A study of Homo sapiens with 11 samples.

Results

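Transforming growth factor beta (TGF-beta) and bone morphogenetic proteins (BMPs) are secreted ligands of 1 family that signal through paired serine/threonine kinase receptors to SMAD transcription factors. The inhibitory SMADs SMAD6 and SMAD7 are induced by the pathway and feed back on it, and the ID genes and ATOH8 are among the genes that BMP signalling switches on. In epithelia the TGF-beta branch is known for growth arrest and for inducing matrix genes and epithelial-mesenchymal transition. The 10 genes described here were chosen by symbol, with no measured value in the rule. Earlier results of these data were known when they were chosen. They are the ligands TGFB1, TGFB2, BMP2 and BMP4, the receptor TGFBR2, the inhibitory SMADs SMAD6 and SMAD7, and the target genes ID1, ID3 and ATOH8. All 10 were found among the 28252 genes of the RNA-Seq files and among the 26237 promoters of the H3K4me3 ChIP-Seq files.

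The study asked which changes caused by nickel outlast the exposure. RNA-Seq came from RT4, a human urinary bladder epithelial tumour line, with 2 replicates each of untreated cells (UT), cells given 100 μM NiCl2 for 6 weeks (Ni-E), and cells then grown for 2 weeks in medium free of nickel (Ni-W). H3K4me3, a histone mark of active promoters, was measured in BEAS-2B, an immortalized human bronchial epithelial line, with a single library for every condition. BEAS-2B Ni-E cells had the same dose for 6 weeks. BEAS-2B Ni-W cells were 1 population grown from a single colony and kept for more than 6 months without nickel, so that clone and condition cannot be told apart, whereas the sample protocols also name 2 weeks.

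RT4 libraries held 17075833 to 27736454 estimated counts. All replicate 1 libraries were shallower (17075833 to 18280556) than all replicate 2 libraries (25721265 to 27736454), and replicates of a number stood apart together: of 14502 genes tested, 942 (6.5%) were at least 1.5-fold higher in replicate 1 in all 3 groups and 397 (2.7%) in replicate 2. The main fold changes are therefore also given within each replicate number. The urothelial markers were present in RT4 cells by TPM, a level scaled to transcript length and depth. At a mean of at least 1 TPM were 14 of 14 in UT and in Ni-W cells and 13 in Ni-E cells. At an adjusted p below 0.05 (edgeR) and at least 1.5-fold, UPK1A fell in Ni-E cells and KRT13 and KRT20 fell in Ni-E and Ni-W cells. Short of that, UPK1B, UPK2, UPK3A, FOXA1 and GATA3 were lower in Ni-E than in UT cells without overlap. Their log2 fold changes were −0.81, −1.65, −0.63, −0.61 and −0.16. KRT5 was higher without overlap (1.18), also short of the call. Of all tested genes, 19.3% were lower and 20.3% higher without overlap. PPARG, KRT7, KRT8, KRT18 and KRT19 overlapped between Ni-E and UT cells. Of 4 immune markers, CD3E was listed at 0, PTPRC reached at most 0.04 TPM and CD14 0.69 TPM. The fourth, CD68, which is not confined to immune cells, was at 7.3 to 13.4 TPM, and the sum of the list was 7.4 to 8.06 TPM in UT, 10.9 to 13.3 in Ni-E and 13.4 to 13.7 in Ni-W cells. The metallothionein MT2A, a metal-induced gene, rose from 0.483 and 0.707 CPM (counts scaled to library depth) in UT cells to 5.02 and 7.18 in Ni-E and 7.07 and 9.64 in Ni-W cells. In BEAS-2B UT cells, 4 of 10 bronchial marker promoters reached 1 RPKM (reads scaled to promoter length and library depth). These were KRT8 and KRT18 at 7.33 and 7.26 RPKM, NKX2-1 at 2.76 and FOXJ1 at 1.55. The basal cell markers KRT5 and TP63 were at 0.22 and 0.388 and the secretory marker SCGB1A1 at 0.176. Of 4 epithelial marker promoters, 3 reached 1 RPKM. Of 9 mesenchymal marker promoters, 5 reached 1 RPKM, with VIM at 8.95.

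The promoters of 6 of the genes are shown first because the histone mark was measured over them and because the RNA or H3K4me3 results below turn on these genes. Each is the 250 bases before the start site in RefSeq on GRCh38.p14, written 5′ to 3′ on the gene's strand, with matches in capitals to CAGAC (the core of the SMAD3 and SMAD4 CAGA box), GGCGCC (a GC element of BMP SMADs), CACGTG (the E-box) and ACGTG or GCGTG (cores of the hypoxia response element) on either strand. ACGTG lies within CACGTG. Of 35116 promoters of this length, CAGAC was found in 38.0%, GGCGCC in 16.4%, CACGTG in 6.3%, ACGTG in 18.5% and GCGTG in 32.2%.
TGFB1 (chr19:41353923-41354172, minus strand): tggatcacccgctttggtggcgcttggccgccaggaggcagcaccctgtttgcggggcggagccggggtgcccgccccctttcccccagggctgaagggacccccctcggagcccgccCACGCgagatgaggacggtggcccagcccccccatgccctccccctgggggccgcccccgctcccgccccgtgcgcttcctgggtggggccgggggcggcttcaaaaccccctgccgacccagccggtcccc
SMAD6 (chr15:66701986-66702235, plus strand): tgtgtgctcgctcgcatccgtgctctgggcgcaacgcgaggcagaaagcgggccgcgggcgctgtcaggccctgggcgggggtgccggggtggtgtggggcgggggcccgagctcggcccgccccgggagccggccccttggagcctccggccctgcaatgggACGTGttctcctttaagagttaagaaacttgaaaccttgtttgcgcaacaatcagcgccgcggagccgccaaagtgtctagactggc
SMAD7 (chr18:48950966-48951215, minus strand): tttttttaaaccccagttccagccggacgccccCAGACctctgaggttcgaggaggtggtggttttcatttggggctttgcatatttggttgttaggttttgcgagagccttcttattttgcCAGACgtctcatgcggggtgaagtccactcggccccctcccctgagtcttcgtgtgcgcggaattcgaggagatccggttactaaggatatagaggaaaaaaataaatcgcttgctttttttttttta
ID1 (chr20:31605039-31605288, plus strand): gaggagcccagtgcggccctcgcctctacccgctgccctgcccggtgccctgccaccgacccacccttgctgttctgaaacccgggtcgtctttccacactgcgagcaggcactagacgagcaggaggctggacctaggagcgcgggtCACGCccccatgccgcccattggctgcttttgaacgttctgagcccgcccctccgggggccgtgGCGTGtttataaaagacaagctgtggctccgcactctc
ID3 (chr1:23559502-23559751, minus strand): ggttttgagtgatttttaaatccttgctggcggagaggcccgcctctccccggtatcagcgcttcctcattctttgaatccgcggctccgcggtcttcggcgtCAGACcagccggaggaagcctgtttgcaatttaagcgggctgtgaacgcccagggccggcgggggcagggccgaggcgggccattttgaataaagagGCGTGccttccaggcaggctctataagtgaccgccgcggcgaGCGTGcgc
ATOH8 (chr2:85753741-85753990, plus strand): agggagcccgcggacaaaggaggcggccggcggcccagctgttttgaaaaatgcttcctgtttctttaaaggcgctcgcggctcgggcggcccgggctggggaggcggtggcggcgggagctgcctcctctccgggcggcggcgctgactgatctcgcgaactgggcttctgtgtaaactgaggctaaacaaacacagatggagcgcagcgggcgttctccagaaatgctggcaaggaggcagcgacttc

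TGFB1 held 1 GCGTG match, SMAD6 1 ACGTG match, ID1 2 GCGTG matches, and ID3 1 CAGAC match with 2 GCGTG matches. SMAD7, whose first of 3 annotated promoters is shown, held 2 CAGAC matches. None of the searched letters occurred in the ATOH8 window, which says nothing of more distant sites. GGCGCC was in none of these 6 windows. Among windows not shown, the first of 3 annotated BMP4 promoters held 1 GGCGCC and 1 CAGAC match. The TGFB2 promoter held 2 CAGAC, 1 CACGTG and 3 ACGTG matches. In the 6 windows shown, GC content ran from 48.0% for SMAD7 to 76.8% for TGFB1, against a median of 58.0% over all promoters. For 9 of the 10 genes a promoter was matched in RefSeq, and these letters are a description of the window, not of binding.

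In RT4 cells the genes spanned a wide range of levels. Per length, as the mean TPM of the 6 libraries ± SD (n = 6), ID1 stood at 1236 ± 183, above 99.6% of listed genes, followed by ID3 at 385 ± 87.4 and TGFB1 at 137 ± 55.1. This SD spans the 3 groups as well as the replicates. For TGFB1 the group means were 73 (UT), 192 (Ni-E) and 146 TPM (Ni-W). SMAD6 (45.9 TPM), BMP2 (38.5), ATOH8 (36.1) and TGFBR2 (30.3) formed a middle group whose ranges overlapped. SMAD7 (6.54 TPM) and BMP4 (3.86) were lower. TGFB2 was listed at 0 to 0.1 TPM, from 0 to 5 estimated counts per library, and was left out of the test by the filter on low counts, so that 9 of 10 genes were tested and no fold change is given for TGFB2. In UT cells the order was clear for ID1, ID3 and TGFB1, whose 2 values did not overlap with those of the next gene (1107 and 1267, 321 and 271, and 78 and 68 TPM). Neighbours among SMAD6 (37.2 and 33 TPM), BMP2 (42.1 and 22.7), TGFBR2 (34.9 and 14) and ATOH8 (24.4 and 20.5) did not differ beyond their spread, nor did SMAD7 (5.31 and 3.24 TPM) and BMP4 (3.11 and 3.37).

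**Figure D1:**
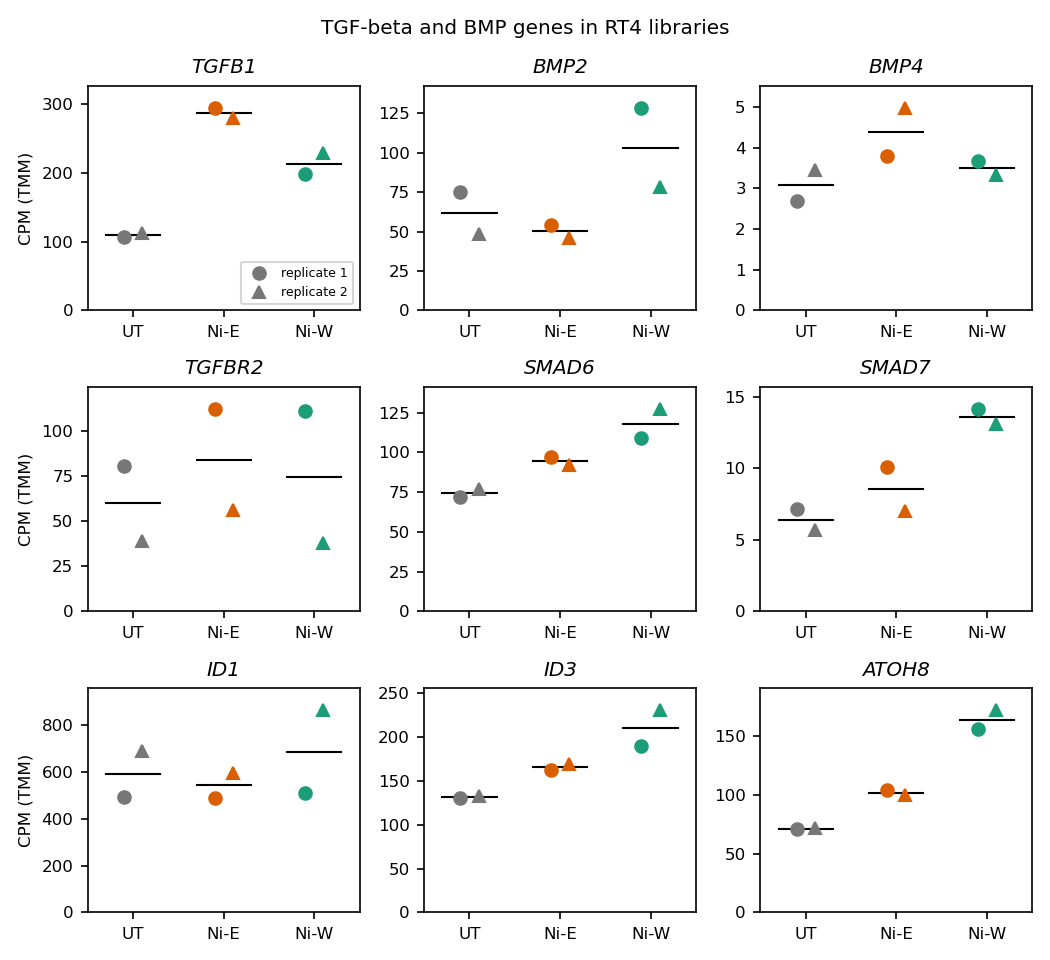
CPM (TMM-scaled) of the 9 tested genes in each RT4 library, with circles for replicate 1, triangles for replicate 2 and a line at the mean of each group. TGFB1 is highest in Ni-E cells (294 and 280 CPM), ATOH8, SMAD6 and ID3 step up from UT to Ni-E to Ni-W, and TGFBR2 is split by replicate number.

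The ligand TGFB1 rose in RT4 cells under nickel. It was at 107 and 113 CPM in UT cells, 294 and 280 in Ni-E cells, and 198 and 229 in Ni-W cells. All 3 groups were apart, with Ni-E highest and Ni-W between. The log2 fold change for Ni-E vs UT was 1.38 (SE 0.16), or 2.61-fold, with an adjusted p of 0.0228 in edgeR's quasi-likelihood test over all genes, and the fold was 2.74 within replicate 1 and 2.49 within replicate 2. For Ni-W vs UT it was 0.95 (SE 0.16), or 1.94-fold, and missed the threshold (adjusted p = 0.0818, edgeR), whereas DESeq2 called it (adjusted p = 0.00173). Ni-W was 0.742-fold of Ni-E (log2 −0.43, SE 0.16, adjusted p = 0.817). The Ni-E call was lost when either UT or either Ni-E library was left out, with the log2 fold change then at 1.35 to 1.42. In bulk RNA, more cells expressing a gene and more RNA per cell cannot be told apart.

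Of the 9 tested genes, TGFB1 was the 1 called for Ni-E vs UT, where 1.45% of all tested genes were called higher and 0.710% lower. The genes whose 6 values were most like those of TGFB1 were TRIM16L (Pearson r = 0.998 of log2 CPM over the 6 libraries), PIK3IP1 (r = 0.995) and SLC6A8 (r = 0.995), the creatine transporter, among 11141 genes with a mean of at least 5 CPM. SLC6A8 was at 120 and 129 CPM in UT, 531 and 527 in Ni-E, and 282 and 321 in Ni-W cells. These correlations describe 6 libraries that share their groups and depth.

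The summed RNA of mesenchymal markers was higher in both nickel groups than in UT cells. Of 9 markers, 3 (ACTA2, COL3A1 and FN1) reached a mean of 1 TPM over the 6 libraries, and the sum of the list was 10.7 to 11.9 TPM in UT, 46.4 to 52.1 in Ni-E and 41.7 to 61 in Ni-W cells. ACTA2, smooth muscle actin, rose in both comparisons with UT, with a log2 fold change of 2.35 (SE 0.25, adjusted p = 0.0193, edgeR) in Ni-E and 2.33 (SE 0.25, adjusted p = 0.0294) in Ni-W cells. It was the 1 marker called. FN1 was at 1.65 and 1.73 (adjusted p = 0.177 and 0.238), COL3A1 at 2.58 and 2.40 (adjusted p = 0.147 and 0.25) and COL1A1 at −0.28 and −0.27. From Ni-E to Ni-W, where TGFB1 gave −0.43, ACTA2 gave −0.02 (SE 0.24), FN1 0.08 (SE 0.44) and COL3A1 −0.18 (SE 0.59). Whether these markers follow TGFB1 was not tested. The defining fibroblast genes COL1A2 and DCN were listed at 0 in all 6 libraries, and VIM reached at most 0.31 TPM.

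The BMP ligands gave no call in edgeR's test of the 3 groups without a replicate block. BMP2 was at 74.9 and 48.7 CPM in UT cells, 54.4 and 45.7 in Ni-E cells, and 128 and 78 in Ni-W cells. Both Ni-W values were above the other 4, and replicate 1 was above replicate 2 in each group. Ni-W vs Ni-E gave a log2 fold change of 1.04 (SE 0.33, adjusted p = 0.642, edgeR), with 2.36-fold within replicate 1 and 1.71-fold within replicate 2. Ni-W vs UT gave 0.74 (SE 0.33, adjusted p = 0.625). With a replicate block, from only 2 pairs, BMP2 was called for both comparisons. Ni-W vs UT then gave 0.73 (SE 0.13, adjusted p = 0.00445, edgeR) and Ni-W vs Ni-E 1.00 (SE 0.13, adjusted p = 0.00166). BMP4 stayed between 2.69 and 4.96 CPM in all 6 libraries, with log2 fold changes of 0.51 (SE 0.29) for Ni-E vs UT and 0.18 (SE 0.29) for Ni-W vs UT, and adjusted p-values of 0.643 and 0.999.

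TGFBR2, the type II receptor that binds TGF-beta, varied with replicate number more than with nickel. It was at 80.9, 112 and 111 CPM in replicate 1 of UT, Ni-E and Ni-W, and at 38.8, 56 and 38.1 CPM in replicate 2. All 3 replicate 1 values were above all 3 replicate 2 values, by 2.00 to 2.92 times, and it was the 1 gene of the 9 at least 1.5-fold higher in replicate 1 in every group. Within replicate 1 and 2, Ni-E vs UT was 1.38-fold and 1.44-fold, and Ni-W vs UT was 1.38-fold and 0.98-fold. Without a replicate block, the log2 fold changes were 0.49 (SE 0.63) and 0.32 (SE 0.63), with adjusted p-values of 0.972 and 0.999 (edgeR). That fit counts the offset between replicate numbers as noise. With a replicate block, from only 2 pairs, Ni-E vs UT gave 0.50 (SE 0.14, adjusted p = 0.0334, edgeR), short of 1.5-fold and so not called. Ni-W vs UT then gave 0.23 (SE 0.14, adjusted p = 0.344).

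The inhibitory SMADs were highest in Ni-W cells but were not called in edgeR's test without a replicate block. SMAD6, which mainly restrains BMP signalling, was at 71.9 and 76.7 CPM in UT, 96.8 and 92.3 in Ni-E, and 109 and 127 in Ni-W cells. The groups did not overlap and stepped up in that order. Its log2 fold change was 0.35 (SE 0.16, adjusted p = 0.526) for Ni-E vs UT and 0.67 (SE 0.17, adjusted p = 0.205) for Ni-W vs UT in edgeR. SMAD7, which acts on both branches, was at 7.14 and 5.69 CPM in UT, 10.1 and 7.03 in Ni-E, and 14.1 and 13.1 in Ni-W cells. UT and Ni-E overlapped, and both Ni-W values were above them. Ni-W vs UT was 2.12-fold (log2 1.09, SE 0.27, adjusted p = 0.205), with 1.98-fold and 2.30-fold within replicates 1 and 2, from 133 to 340 estimated counts per library. With a replicate block, from only 2 pairs, SMAD6 and SMAD7 were called for Ni-W vs UT. The log2 fold changes were then 0.67 (SE 0.11, adjusted p = 0.00264, edgeR) and 1.10 (SE 0.17, adjusted p = 0.00218).

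ATOH8, a basic helix-loop-helix transcription factor, was higher in Ni-W than in UT cells. It was at 70.7 and 71.6 CPM in UT, 104 and 100 in Ni-E, and 156 and 172 in Ni-W cells. The replicates lay close together and the 3 groups stepped up without overlap. Ni-W vs UT was 2.3-fold (log2 1.20, SE 0.16, adjusted p = 0.0488, edgeR), and 2.20-fold and 2.40-fold within replicates 1 and 2. Ni-E vs UT was 1.43-fold (log2 0.52, SE 0.15, adjusted p = 0.21), and Ni-W vs Ni-E was 1.6-fold (log2 0.68, SE 0.15, adjusted p = 0.374). The Ni-W call sat at the threshold: leaving out any of the 6 libraries ended it (adjusted p = 0.0925 to 0.421, log2 fold change 1.13 to 1.28). Among the 11141 genes searched, those most like ATOH8 over the 6 libraries were NLRP7 (r = 0.998), MX1 (r = 0.997) and UBE2L6 (r = 0.993). These correlations, too, describe 6 libraries that share their groups and depth, and a link between these genes was not tested. MX1 and UBE2L6 are known as interferon-induced genes, and MX1 was at 21.2 and 25.8 CPM in UT, 56.8 and 59.6 in Ni-E, and 155 and 185 in Ni-W cells.

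The ID genes encode inhibitors that hold basic helix-loop-helix factors off DNA. ID3 was at 130 and 133 CPM in UT, 162 and 169 in Ni-E, and 189 and 230 in Ni-W cells. Its groups did not overlap. Without a replicate block, its log2 fold change was 0.33 (SE 0.17, adjusted p = 0.585, edgeR) for Ni-E vs UT and 0.67 (SE 0.17, adjusted p = 0.21) for Ni-W vs UT. With the block, from only 2 pairs, ID3 was called for Ni-W vs UT (0.66, SE 0.10, adjusted p = 0.00181, edgeR). ID1 was at 495 and 690 CPM in UT, 489 and 597 in Ni-E, and 512 and 864 in Ni-W cells. Its groups overlapped in every comparison, replicate 2 was the higher in each group, and its log2 fold changes were −0.13 (SE 0.31) and 0.22 (SE 0.31). ID2 and ID4, named after their values were seen, were at 20.2 and 23.8 CPM and 29.4 and 31.9 CPM in UT cells. In Ni-E cells ID2 was at 20.6 and 23.7 CPM (log2 fold change 0.01, SE 0.20) and ID4 at 47.8 and 53.1 CPM (0.72, SE 0.18, adjusted p = 0.136, edgeR). In Ni-W cells ID2 was at 31.9 and 36.8 CPM (log2 fold change 0.64, SE 0.20, adjusted p = 0.337) and ID4 at 41.9 and 47.2 CPM (0.54, SE 0.18, adjusted p = 0.384). From Ni-E to Ni-W, ID2 was higher and ID4 lower, each without overlap.

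**Figure D2:**
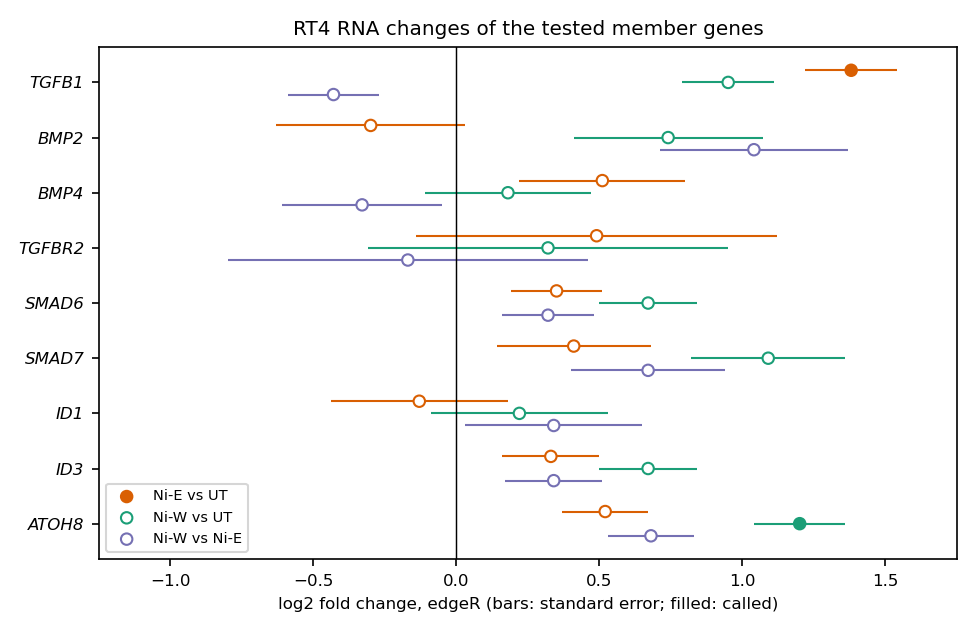
Log2 fold changes of the 9 tested genes in RT4 cells for the 3 comparisons, with the standard error as bars and filled points for genes called by edgeR. The filled points are TGFB1 for Ni-E vs UT (1.38) and ATOH8 for Ni-W vs UT (1.20), and all 9 values for Ni-W vs UT lie above 0.

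Of the 9 tested genes, 7 had a log2 fold change above 0 in Ni-E compared with UT cells (median 0.41, beside −0.01 over all 14502 genes). In Ni-W compared with UT cells all 9 were above 0 (median 0.67, beside 0.00), and in Ni-W compared with Ni-E cells 6 were (median 0.34, beside 0.02). The comparisons with UT share the UT libraries, and the genes were chosen with earlier results of these data known. For Ni-W vs UT, 1 of 9 was called by edgeR without a replicate block, where 0.503% of all genes were called higher and 0.0965% lower. With the block, from only 2 pairs, 6 of the genes were called, among 1243 genes in all. Without overlap of the groups, 5 of 9 were higher for Ni-E vs UT (20.3% of all genes) and 6 of 9 for Ni-W vs UT (15.1%), and none was lower (19.3% and 14.1%). At least 1.5-fold higher within both replicate numbers were 1 of 9 for Ni-E vs UT (8.30% of all genes) and 5 of 9 for Ni-W vs UT (6.52%), which were TGFB1, SMAD6, SMAD7, BMP2 and ATOH8. SMAD6, ID3 and ATOH8, 3 of 9, stepped up from UT to Ni-E to Ni-W with no overlap at either step, as did 280 of all tested genes (1.93%).

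Between Ni-W and Ni-E cells no gene at all was called by edgeR without a replicate block (0% of 14502). DESeq2 called 139 genes, none of them among the 9. With a replicate block, from only 2 pairs, edgeR called 655 genes, among them SMAD7, BMP2 and ATOH8. Without the block, 808 genes were at an unadjusted p below 0.05. At that unadjusted level were TGFB1, lower in Ni-W, and SMAD7, BMP2 and ATOH8, higher in Ni-W. SMAD6, SMAD7, BMP2, ID3 and ATOH8 were higher without overlap (5 of 9, 12.7% of all genes) and TGFB1 and BMP4 were lower without overlap (2 of 9, 12.7%). BMP2 alone was at least 1.5-fold higher within both replicate numbers (1 of 9, 3.59% of all genes).

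Other genes of the pathway were counted in 5 lists: ligands and latency proteins, receptors and co-receptors, receptor-activated and common SMADs, antagonists and negative regulators, and targets. Of 71 genes 54 were tested. For Ni-E vs UT, 2 of 54 were called higher and 0 lower (1.45% and 0.710% of all genes), with a median log2 fold change of 0.13 beside −0.01 over all genes, and both were among the 12 tested targets. They were TGFBI, an extracellular matrix protein induced by TGF-beta, and HEY1, a Notch and BMP target.

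TGFBI rose from 4.94 and 3.45 CPM in UT to 23.2 and 20 in Ni-E cells (log2 fold change 2.36, SE 0.26, adjusted p = 0.0199, edgeR), and Ni-W cells were at 14.4 and 14.5 CPM (1.79, SE 0.25, adjusted p = 0.0588). HEY1 rose from 7.47 and 6.75 CPM to 22.4 and 21.2 in Ni-E cells (1.62, SE 0.20, adjusted p = 0.0257). In Ni-W cells HEY1 was at 8.45 and 8.1 CPM (0.22, SE 0.20, adjusted p = 0.999). Both calls were lost when either UT or either Ni-E library was left out. For Ni-W vs UT, 0 of 54 were called by edgeR without a replicate block, where 0.503% of all genes were called higher and 0.0965% lower. DESeq2 called 3 of them, and 437 genes in all. The median was 0.01, beside 0.00 over all genes. Between Ni-W and Ni-E cells, 0 of 54 were called by edgeR without a replicate block and 1 by DESeq2. The median was −0.14, beside 0.02 over all genes. With the block, from only 2 pairs, edgeR called 13 list genes for Ni-E vs UT (1833 genes in all). It then called 6 for Ni-W vs UT (1243 in all) and 7 for Ni-W vs Ni-E (655 in all).

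**Figure D3:**
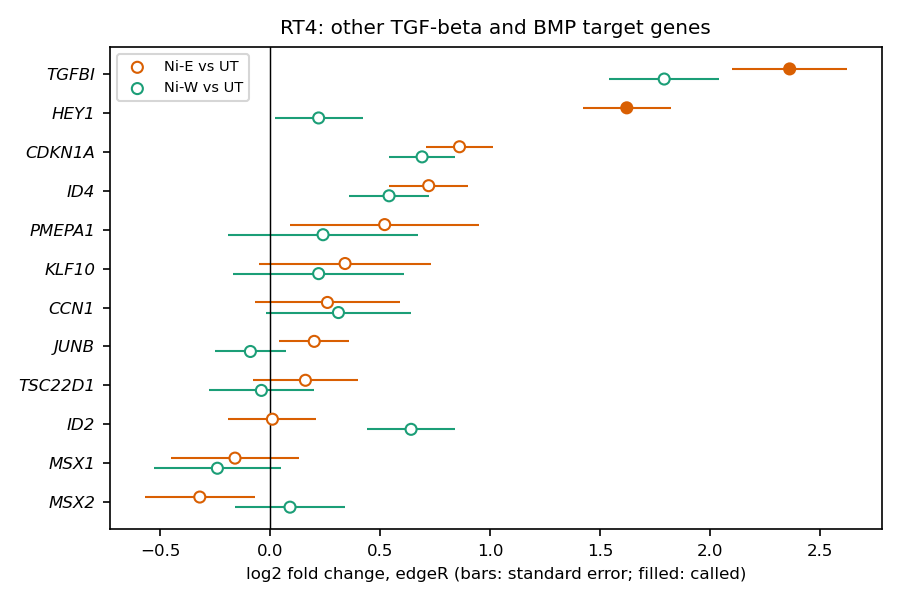
Log2 fold changes with standard errors for the 12 tested target genes outside the 10 in RT4 cells, Ni-E vs UT and Ni-W vs UT, filled where edgeR called the gene. TGFBI and HEY1 are called in Ni-E cells, and the Ni-W value of HEY1 is 0.22.

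In BEAS-2B cells, all 10 promoters carried H3K4me3. The level is the RPKM over 2 kb on each side of the start site, in single libraries of 28385713 (UT), 37493964 (Ni-E) and 29933481 (Ni-W) reads, with 95% Wilson intervals that cover counting error only, so that no difference between conditions has a replicate check. In UT cells SMAD7 (chr18:48919853-48950965 on GRCh38) was highest at 14.2 RPKM (13.5 to 14.9), above 98.7% of promoters. ATOH8 (chr2:85753991-85791383) was at 11.2 RPKM, ID3 (chr1:23557926-23559501) at 10.7, TGFB2 (chr1:218345336-218444619) at 9.94, TGFB1 (chr19:41330323-41353922) at 9.65 and ID1 (chr20:31605289-31606510) at 9.62. Intervals of these 5 overlapped between neighbours. SMAD6 (chr15:66702236-66782849) was at 7.34 RPKM, TGFBR2 (chr3:30606356-30694142) at 6.89 and BMP4 (chr14:53949736-53956891) at 6.84, again with overlapping intervals. BMP2 (chr20:6767686-6780246) was lowest at 3.58 (3.24 to 3.94), above 58.2% of promoters.

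**Figure D4:**
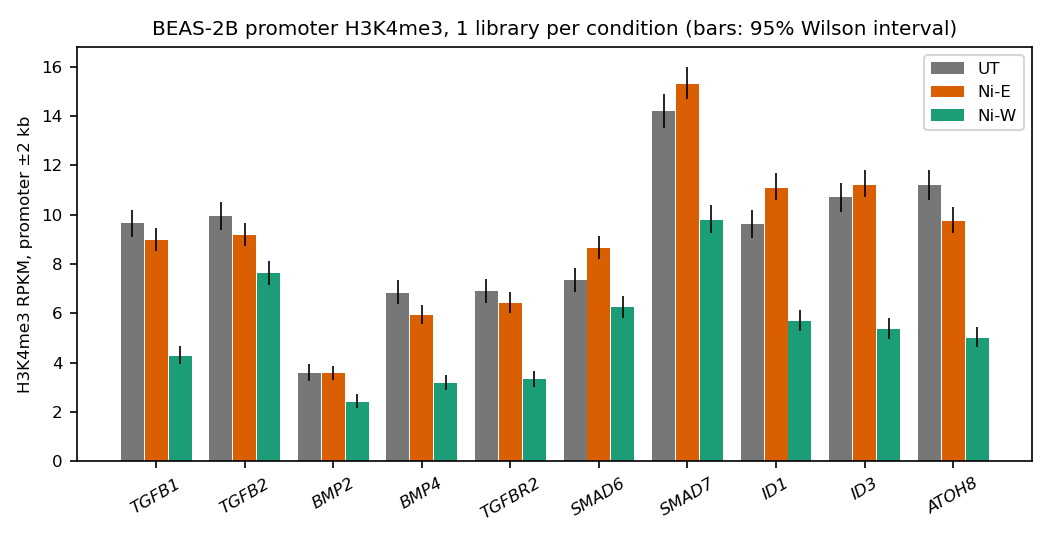
H3K4me3 in RPKM over 4 kb at the 10 promoters in the 3 BEAS-2B libraries, 1 per condition, with 95% Wilson intervals. SMAD7 is highest in all 3 libraries, and every promoter is lowest in the Ni-W library as deposited.

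The libraries differed as a whole. Summed over all promoter windows, reads came to 37.6% of the library depth in UT, 36.0% in Ni-E and 22.9% in Ni-W cells. A read in overlapping windows counts in each of them. The median promoter was at 1.568, 1.387 and 1.119 RPKM. Ratios are therefore given after division by the library median. Promoters at the same level are here the 10545 whose mean RPKM lay between the lowest and highest of the 10 genes (3.19 and 13.1). They are 1 set for all 10 genes and are not matched to each gene's own level. Their median log2 ratio to UT was still 0.12 in Ni-E and −0.34 in Ni-W cells, and each gene is read beside these medians.

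Under nickel, the promoters of the inhibitory SMADs and the ID genes had the 4 highest ratios of the 10. SMAD6 went from 7.34 to 8.65 RPKM, a log2 ratio of 0.41 (0.29 to 0.54), higher than 98.8% of promoters at the same level. ID1 went from 9.62 to 11.1 RPKM, a ratio of 0.39 (0.28 to 0.50), higher than 98.3% of such promoters. SMAD7 gave 0.29 (0.20 to 0.38) and ID3 0.25 (0.14 to 0.35). The counting intervals of these 4 lay above the same-level median. Without median scaling the 4 ratios were 0.24, 0.21, 0.11 and 0.07, and with quantile normalization 0.30, 0.27, 0.17 and 0.12. All were above 0, but the unscaled interval of ID3 (−0.04 to 0.18) included 0.

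Promoters within 1 Mb of these genes had medians of 0.13 (SMAD6), 0.05 (ID1), 0.16 (SMAD7) and 0.08 (ID3). Nearer to the median were TGFB1 at 0.07, TGFB2 at 0.06, BMP2 at 0.17 and TGFBR2 at 0.08, and BMP4 (−0.03) and ATOH8 (−0.02) were lowest. None of the 10 reached 1.5-fold, where 1.01% of the 14127 promoters with at least 1 RPKM in any library were higher and 0.595% lower. The median of the 10 was 0.13.

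In Ni-W cells, SMAD6 and TGFB2 had the highest ratios to UT. SMAD6 was at 6.25 RPKM (Ni-W vs UT log2 ratio 0.25, 0.11 to 0.40) and TGFB2 at 7.62 RPKM (0.10, −0.02 to 0.23), higher than 93.1% and 87.5% of promoters at the same level. Without median scaling both were below 0, at −0.23 and −0.38. SMAD7 (−0.05), BMP2 (−0.08) and ID1 (−0.27) were also above the same-level median of −0.34.

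TGFB1 was at 4.28 RPKM (−0.69, −0.84 to −0.53), ATOH8 at 5.01 (−0.67, −0.81 to −0.53) and BMP4 at 3.17 (−0.62, −0.80 to −0.44), and these were the 3 of 10 past 1.5-fold lower. Of all promoters with at least 1 RPKM, 18.4% were past it, and the promoters within 1 Mb of these 3 genes had medians of −0.51, −0.48 and −0.42. Without median scaling 6 of 10 were past 1.5-fold lower (71.0% of promoters), and with quantile normalization 0 of 10 (5.39%). TGFBR2 (−0.56) and ID3 (−0.51) lay just inside the limit. Higher by 1.5-fold were 0 of 10 (4.39% of promoters). The median of the 10 was −0.39.

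For Ni-W vs Ni-E, TGFB1 (−0.76), ID3 (−0.75), ID1 (−0.66), ATOH8 (−0.65), TGFBR2 (−0.64) and BMP4 (−0.60) were past 1.5-fold lower, 6 of 10, where 30.3% of promoters were, and 0 of 10 were higher (4.07%). The median was −0.62, beside −0.45 at the same level. With quantile normalization 0 of 10 were past it (6.07% of promoters).

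**Figure D5:**
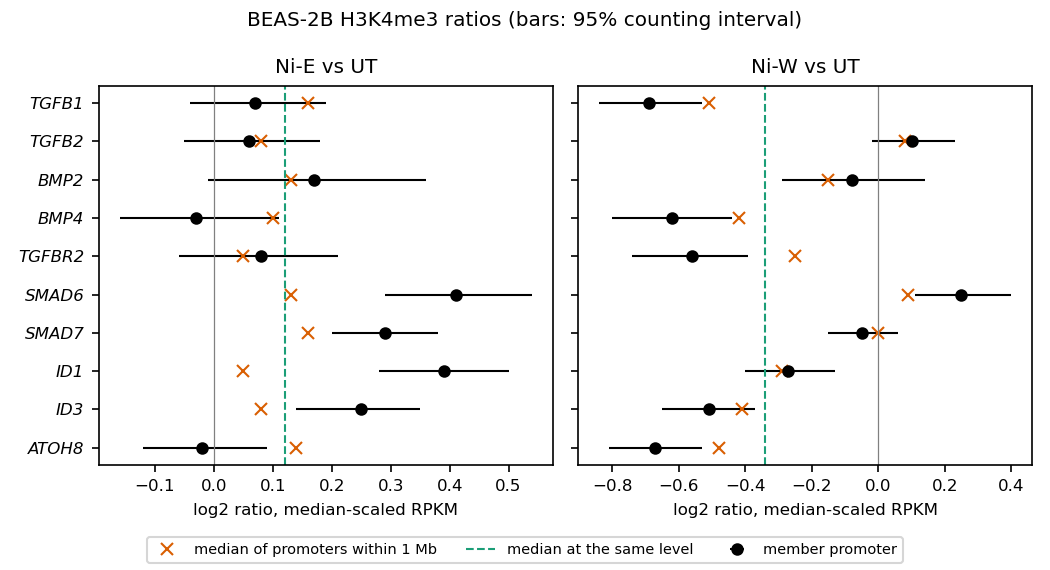
Log2 ratios of median-scaled H3K4me3 RPKM at the 10 promoters in BEAS-2B cells with 95% counting intervals, beside the median of promoters within 1 Mb (crosses) and of promoters at the same level (dashed line). SMAD6, ID1, SMAD7 and ID3 lie to the right of the line for Ni-E vs UT, and TGFB1, ATOH8 and BMP4 lie farthest left for Ni-W vs UT.

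Of the 71 other pathway genes, 55 had at least 1 RPKM in a BEAS-2B library. For Ni-E vs UT, 0 were past 1.5-fold higher and 1 lower (1.01% and 0.595% of promoters), with a median of 0.07 beside 0.11. The highest were BMP6, a ligand, from 4.41 to 5.47 RPKM (0.49, 0.33 to 0.65) and ID2, from 4.4 to 5.49 RPKM (0.49, 0.33 to 0.65). The lowest were the ligands BMP8B (−0.87, from 156 to 100 reads) and GDF7 (−0.36). For Ni-W vs UT, 2 were higher and 4 lower (4.39% and 18.4% of promoters), with a median of −0.22 beside −0.32 over promoters with at least 1 RPKM. The highest were the type I receptors ACVR1C (1.06, 0.75 to 1.37) and BMPR1B (1.01, 0.69 to 1.32), from 1.18 and 1.19 RPKM in UT cells. The lowest were the BMP antagonist CHRDL1 (−1.69, −2.24 to −1.15), from 142 to 33 reads, and the ligand TGFB3 (−0.65, −0.93 to −0.38). RNA was measured in RT4 cells after 2 weeks without nickel and the mark in BEAS-2B cells after more than 6 months, so the 2 readouts were not compared gene by gene.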

How the data were processed

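RNA-Seq of RT4 cells and H3K4me3 ChIP-Seq of BEAS-2B cells were analysed. ChIP input libraries were not analysed here. For RNA-Seq, the authors deposited RSEM expected counts, TPM and FPKM per gene. The paper describes alignment with STAR to hg19 and DESeq2, and does not mention RSEM. Of the deposited expected counts 97.9% were whole within 0.005. They were rounded, and the main test was the quasi-likelihood test of edgeR (TMM, filterByExpr, 1 model of 3 groups, no block). A gene was called at a Benjamini-Hochberg adjusted p below 0.05 over all genes tested and at least 1.5-fold. Deposited TPM values gave levels per length and an alternative with limma on log2(TPM + 1). Deposited FPKM values were not used in any result.

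In the ChIP-Seq data, alignment by the authors was to hg38 with BWA. They removed duplicates and deposited the RPKM of each promoter without peak calling. Values were multiples of 1 step per library (100.00% whole), which gave reads and depth. A ratio has no test.

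The genes and lists were chosen with earlier results of these data known. A listed target gene is not reported here and was left out of the list counts. Named are the 10 genes, called genes of the 5 lists (up to 4 a list), in BEAS-2B the 2 highest and 2 lowest ratios of those lists, and the 3 genes most like the called gene with the largest change. The paper describes 2 biological replicates for RNA-Seq. Intervals cover counting error only, since BEAS-2B had 1 library per condition. Reads carry no molecular identifiers. Alternatives were DESeq2, RLE factors, other filters, limma, 2-group fits, a replicate block, each library left out, and for ChIP other scalings. Scripts were tested on simulated data. Python 3.11.15 (pandas 2.3.3, numpy 2.4.6, matplotlib 3.10.9, scipy 1.17.1) and R 4.3.3 (DESeq2 1.42.0, edgeR 4.0.16, limma 3.58.1) were used.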

Additional observations from a re-analysis of the deposited data

How the results depend on the processing

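Of the alternative RT4 log2 fold changes of the 9 tested genes, 318 kept direction and side of the threshold, 9 gained a call, 13 lost one and 11 reversed, the last all for TGFBR2, BMP2 or ID1, none of them called, when 1 library was left out. With each library left out in turn, TGFBR2 ranged from −0.10 to 1.11 for Ni-E vs UT, −0.65 to 0.95 for Ni-W vs UT and −1.12 to 0.42 for Ni-W vs Ni-E, ID1 from −0.34 to 0.13, −0.21 to 0.55 and −0.09 to 0.68, and BMP2 from −0.58 to 0.04 for Ni-E vs UT. A library left alone in its group was assumed to vary like the others. All genes called for Ni-E vs UT, 314 as reported, were 734 with DESeq2, 209 with at least 10 counts in every sample, 177 with limma and 0 to 331 with 1 library left out. The 10 genes then gave 0 to 1 calls, and the pathway lists, 2 as reported, 7 with DESeq2, 0 with limma and 0 to 2 with 1 library left out. For Ni-W vs UT, 87 became 437 with DESeq2, 193 without a filter, 54 with at least 10 counts, 0 in the 2-group fit and 0 to 38 with 1 library left out. ATOH8 was the call lost: the 10 genes gave 2 with DESeq2 (with TGFB1) and 0 with at least 10 counts, limma, the 2-group fit or any library left out. The lists gave 3 with DESeq2 and 1 without a filter. For Ni-W vs Ni-E, 0 became 139 with DESeq2 and 14 without a filter, and the lists gave 1 with DESeq2. The cause was not tested.

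Sample titles give each group an original and a duplicate. Deviations of same-numbered libraries correlated at r = 0.845 (UT and Ni-E), 0.9106 (UT and Ni-W) and 0.8376 (Ni-E and Ni-W) over 11141 genes, but each comparison has only 2 pairs and no label ties a number to a culture or day. With a replicate block, 1833, 1243 and 655 genes were called for Ni-E vs UT, Ni-W vs UT and Ni-W vs Ni-E. Of the 10 genes 1, 6 and 3 were called and of the lists 13, 6 and 7. The 6 were TGFB1, SMAD6, SMAD7, BMP2, ID3 and ATOH8, and the 3 were SMAD7, BMP2 and ATOH8.

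For H3K4me3, genes past 1.5-fold for Ni-W vs UT, 3 as reported, were 6 without median scaling and 0 with quantile normalization or scaling over promoters with at least 1 RPKM. For Ni-W vs Ni-E, 6 became 0 with those last alternatives. Of the ratios 39 stayed within their counting interval and 81 moved outside it. No Ni-E vs UT count changed. RT4 had 2 libraries a group and BEAS-2B 1, and 290 to 2302 reads lay behind each promoter value of the 10 genes.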

Other observations

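Within the lists, some genes outside the naming rule are given as values, chosen after they were seen. SMAD3, which carries the TGF-beta signal, was at 88.4 to 142 TPM in the 6 RT4 libraries, whereas SMAD4, the common partner of the receptor-activated SMADs, was at 1.3 to 3.87 TPM. CDKN2B, a cell cycle inhibitor induced by TGF-beta, was listed at 0 in all 6. CDKN1A, another such inhibitor, was at 280 and 273 CPM in UT, 512 and 491 in Ni-E, and 445 and 447 in Ni-W cells (Ni-E vs UT log2 fold change 0.86, SE 0.15, adjusted p = 0.0537, edgeR).

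Extracellular and membrane antagonists gave no call in edgeR's test without a replicate block. FST, which binds activins, was at 16.7 and 16.8 CPM in UT, 28.6 and 32.8 in Ni-E, and 35.5 and 38.8 in Ni-W cells (Ni-W vs UT log2 fold change 1.15, SE 0.18, adjusted p = 0.0747, edgeR). BAMBI, a pseudoreceptor, was at 65.1 and 66.9 CPM in UT, 40.5 and 37.6 in Ni-E, and 55.6 and 63.1 in Ni-W cells (Ni-E vs UT −0.76, SE 0.17, adjusted p = 0.109). TGFBR1, the type I TGF-beta receptor, was at 6.61 and 5.26 CPM in UT, 10.5 and 13.2 in Ni-E, and 6.61 and 8.33 in Ni-W cells (Ni-E vs UT 1.00, SE 0.26, adjusted p = 0.158). NDRG1, a hypoxia-induced gene used to check the exposure, was at 284 and 185 CPM in UT, 1138 and 781 in Ni-E, and 781 and 490 in Ni-W cells (Ni-E vs UT 2.03, SE 0.36, adjusted p = 0.0577). CA9, another such gene, was at 60.2 and 78.6 CPM in UT, 107 and 133 in Ni-E, and 53.9 and 85.8 in Ni-W cells, and MT1X was at most 1.28 CPM.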
